A study of Macaca mulatta with 12 samples.

Results

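The expanded T cell clonotypes of rhesus macaques (Macaca mulatta) given apoptotic donor leukocytes (ADLs) were examined for V, D and J gene use, length, amino acid make-up and similarity of the third complementarity-determining region (CDR3) of the T cell receptor beta chain (TRB). A clonotype was taken as expanded where its count was at least 0.1% of the total count of its library, in any of the 8 libraries made after infusion. The members were therefore chosen by their share, and shares are given below as a description without a test. By this rule 281 of 218161 clonotypes of the 8 libraries (0.129%) were members, of which 264 were productive and 17 were not. Counted once each by nucleotide sequence, they were 114 CDR3s, 105 of them productive. They were set against 197581 low clonotypes, the productive ones below 0.01% of the same library.

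ADLs are donor white cells fixed so that they undergo apoptosis, and they were given in 2 infusions around the day intended for an islet transplant. The animals of this cohort were nondiabetic, received no transplant, and differed from their donors at MHC class I while sharing an MHC class II DRB allele. All of them received the same transient immunosuppression, with an anti-CD40 antibody, rapamycin, a soluble tumor necrosis factor receptor and an anti-interleukin-6 receptor antibody. The libraries carry the animal names Amazo (days -5, -4 and +3), Nebula (days -5, -4 and 0) and Rocket (days -5 and -4), in days relative to the intended transplant. The labels give the day alone. Counted from the infusion days of the series description, days -5, -4 and 0 were 2, 3 and 7 days after the first infusion. Day +3 was 2 days after the second. The sources differ on the second infusion, which another description of the protocol puts a day earlier, so the interval before day +3 is uncertain. The 4 baseline libraries under other names held no sequence of a member at a count of 1 or more and entered no comparison. All 12 libraries hold 218326 clonotypes and the 8 made after infusion 218161, so the baseline libraries are nearly empty. Absence of members from them therefore says little about the time before infusion. All libraries were made from RNA of blood mononuclear cells, so more cells of a clone and more receptor RNA per cell cannot be told apart.

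A T cell builds its beta chain by joining a V, a D and a J segment, trimming their ends and adding nucleotides that no germline segment encodes. The CDR3 spans these joins, and its centre is the stretch that usually lies over the peptide held by the MHC molecule. All daughters of a T cell carry the same CDR3 nucleotide sequence, whereas cells that reach the same CDR3 protein by separate joins usually differ in nucleotides.

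The 8 libraries did not sort by their animal names. By the Morisita-Horn index, which runs from 0 for no shared clonotype to 1 for equal repertoires, they fell into 3 sets with 0.765 to 0.977 within a set and at most 0.0116 between sets. Set 1 held the libraries labelled Amazo day -5, Amazo day +3, Rocket day -5 and Rocket day -4. Set 2 held the 3 libraries labelled Nebula, and set 3 the library labelled Amazo day -4 alone. Whether labels were exchanged was not tested. Since libraries of a set share most members, the set and not the library is the unit of each test below (n = 3), and the values of single libraries are descriptions.

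The 3 largest productive clonotypes of sets 1 and 2 and the 2 largest of set 3 are printed first, because they held the highest mean shares. The CDR3 is given 5′ to 3′. Capitals mark the bases between the end of the V match and the start of the J match, that is the added nucleotides and any D segment. In set 1 these were the following.
TRBV29-1 and TRBJ2-1, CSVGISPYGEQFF: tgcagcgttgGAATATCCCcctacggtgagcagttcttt
TRBV9 and TRBJ2-3, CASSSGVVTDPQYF: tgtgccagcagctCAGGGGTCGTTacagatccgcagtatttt
TRBV9 and TRBJ1-1, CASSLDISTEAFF: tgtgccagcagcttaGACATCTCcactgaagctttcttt

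In set 2 they were the following.
TRBV6-3 and TRBJ1-1, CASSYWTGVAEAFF: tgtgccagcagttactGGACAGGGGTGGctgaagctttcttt
TRBV23-1 and TRBJ2-7: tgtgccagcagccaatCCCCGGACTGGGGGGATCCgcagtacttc
TRBV12-2 and TRBJ1-5: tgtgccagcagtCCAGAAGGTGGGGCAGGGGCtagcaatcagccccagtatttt

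In set 3 they were the following.
TRBV5-1 and TRBJ1-4: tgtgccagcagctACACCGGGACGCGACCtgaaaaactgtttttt
TRBV24-1 and TRBJ2-1, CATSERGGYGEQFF: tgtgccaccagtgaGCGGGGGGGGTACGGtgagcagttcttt

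Among these 8 sequences, the capitals run from 8 bases in the third clonotype of set 1 to 20 bases in the third of set 2. Those given without their protein have a CDR3 of 15 or 18 residues. The third clonotype of set 1 had no D hit, and both of set 3 had a D hit tied between TRBD1 and TRBD2. The leading clonotype of set 1 held 3.85% of counts in Amazo day -5, 5.88% in Amazo day +3, 8.35% in Rocket day -5 and 6.26% in Rocket day -4. The leading clonotype of set 2 held 1.88% at day -5, 4.07% at day -4 and 2.83% at day 0. That of set 3 held 6.64% in Amazo day -4 and 0.0839% in Amazo day -5.

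Members per library were 47, 34 and 41 in Amazo days -5, -4 and +3, 21, 23 and 19 in Nebula days -5, -4 and 0, and 50 and 46 in Rocket days -5 and -4. They took 40.4%, 22.2%, 43.8%, 6.21%, 10.8%, 6.65%, 54.8% and 45.1% of all counts, in that order. The lowest was Nebula day -5 and the highest Rocket day -5. The median member held 0.173% to 0.616% of its library, so most members lay within an order of magnitude of the threshold. The threshold stood for 42.7 counts in the shallowest library, Nebula day -4 with 42695 counts, and for 557 in the deepest, Rocket day -5 with 556954. Next to the threshold, the smallest member of each library held 0.10% to 0.119% (44 to 662 counts), and the largest clonotype just outside it 0.0874% to 0.0995% (42 to 538 counts). In Nebula day -4 that step was 44 against 42 counts.

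**Figure D1:**
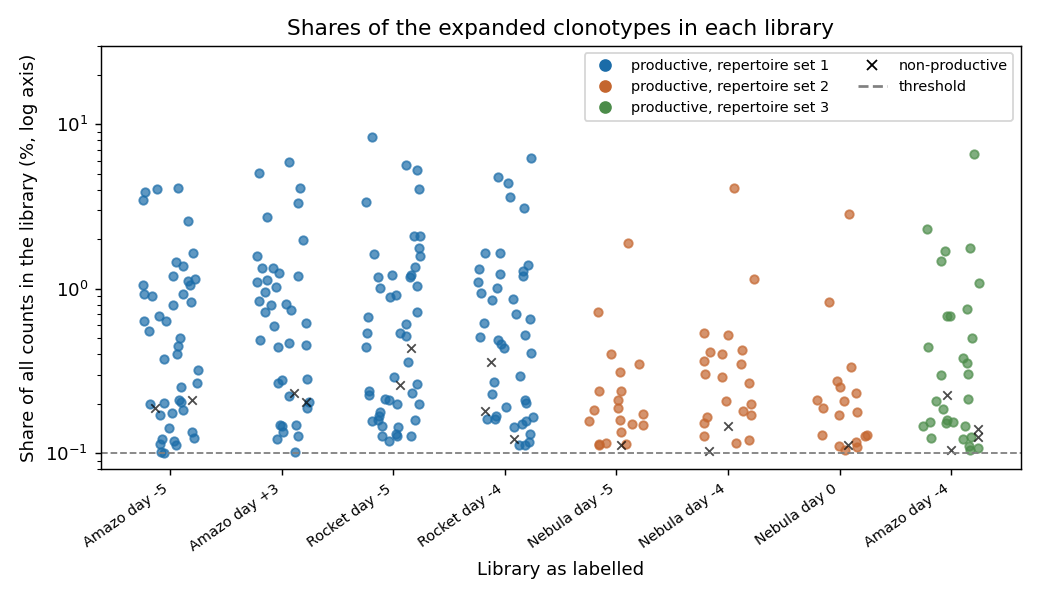
Share of all counts in the library (%, log axis) of each of the 281 expanded clonotypes, by library as labelled. Circles are productive and crosses non-productive clonotypes, colours mark the 3 repertoire sets and the dashed line the 0.1% threshold. The 4 libraries of set 1 hold 41 to 50 members each and the 3 Nebula libraries 19 to 23.

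Most members were members in each library of their set. Of 54 distinct members of set 1, 38 were at 0.1% or more in all 4 libraries and 7 in 1 only, and each of the 54 was detected in all 4, down to 0.0389%. Of 26 in set 2, 17 were members in all 3 libraries and 6 in 1 only. Set 3 had 34, all from its single library. No nucleotide sequence was a member in more than 1 set. At lower shares, 31 of the 54 members of set 1 were detected in another set, at up to 0.00426% of a library. By library, 22 were found in Nebula day -5, 21 in Amazo day -4, 16 in Nebula day 0 and 0 in Nebula day -4. Of the 26 members of set 2, 7 were detected in another set, at up to 0.000764%. Of the 34 members of Amazo day -4, 28 were found in Amazo day -5, at a median of 1.60% of their Amazo day -4 share, and together made 0.334% of its counts. Amazo day +3 held 11 of the 34 and Rocket day -5 held 4. Nebula day 0 held 2, and Nebula day -5 and Rocket day -4 held 1 each. In Nebula day -4, the shallowest library, 0 of the 34 were found. The source of these low counts was not tested.

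V gene use was broad. The 105 distinct productive members used 42 of the 61 V genes seen among low clonotypes, and no V gene held more than 8 of them. The 5 V genes with the most members were TRBV23-1 with 8, TRBV27 and TRBV28 with 6 each, and TRBV12-2 and TRBV6-3 with 5 each, a number that TRBV20-1 and TRBV9 also reached. TRBV23-1 made 7.62% of members and 7.76% of low clonotypes, and TRBV27 5.71% and 5.10%, so both were about as common among low clonotypes. TRBV28 made 5.71% of members but 1.16% of low clonotypes. Numbers of V-J combinations were close to numbers of clonotypes, with 44 for 51 productive members in set 1, 23 for 24 in set 2 and 30 for 30 in set 3.

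No V gene differed between members and low clonotypes past the threshold. The test was the edgeR quasi-likelihood fit on numbers of distinct clonotypes with the set as block, and it called 0 of 56 V genes (0%) at an adjusted p below 0.05. At an unadjusted p below 0.05 it gave 5. The same fit scaled by total counts called 0 with 1 unadjusted, and DESeq2 called 0 with 6 unadjusted. TMM scaling is unstable for columns of 24 to 51 clonotypes and moved the median log2 fold change of all V genes to -1.03, against -0.04 with scaling by total counts. The total-count value is therefore given beside the TMM value, and the 5 genes with a fold change given here kept their sign under both. TRBV28 took 9.80%, 0% and 3.33% of members in sets 1, 2 and 3 against 1.40%, 0.979% and 0.714% of low clonotypes. Its log2 fold change was 1.49 ± 0.88 with TMM (SE, edgeR adjusted p = 0.717) and 2.37 ± 0.96 by total counts (edgeR adjusted p = 0.855). The gene had 5 of its 6 members in set 1, and without set 1 the TMM value was -0.07. TRBV16 and TRBV5-4 had the next smallest p among genes with a positive fold change, at 2.10 ± 1.85 and 1.72 ± 1.98 with TMM (SE, edgeR adjusted p = 0.729 for both). By total counts they were at 3.22 ± 1.97 and 2.52 ± 2.00 (SE, edgeR adjusted p = 0.999 for both), and each rested on a single member.

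Among genes with a negative fold change, TRBV5-1 had 2 of 105 members (1.9%) against 5.68% of low clonotypes. Both members were in set 3 and included its largest clonotype, whereas sets 1 and 2 had 0 against 5.85% and 5.28%. Its log2 fold change was -2.55 ± 1.18 with TMM (SE, edgeR adjusted p = 0.446) and -1.61 ± 1.29 by total counts (edgeR adjusted p = 0.999). TRBV6-1 had 2 members, at 1.96%, 0% and 3.33% against 1.8%, 5.14% and 7.82% of low clonotypes by set. Its log2 fold change was -2.25 ± 1.03 with TMM (SE, edgeR adjusted p = 0.446) and -1.17 ± 1.22 by total counts (edgeR adjusted p = 0.999). No fold change is given for TRBV3-1, which was the first hit of 0 members, which allows a share of up to 2.86% above its 1.09% to 1.94% of low clonotypes. Tied hits bear on it, since 2 members of set 3 listed TRBV3-1 behind TRBV3-2.

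**Figure D2:**
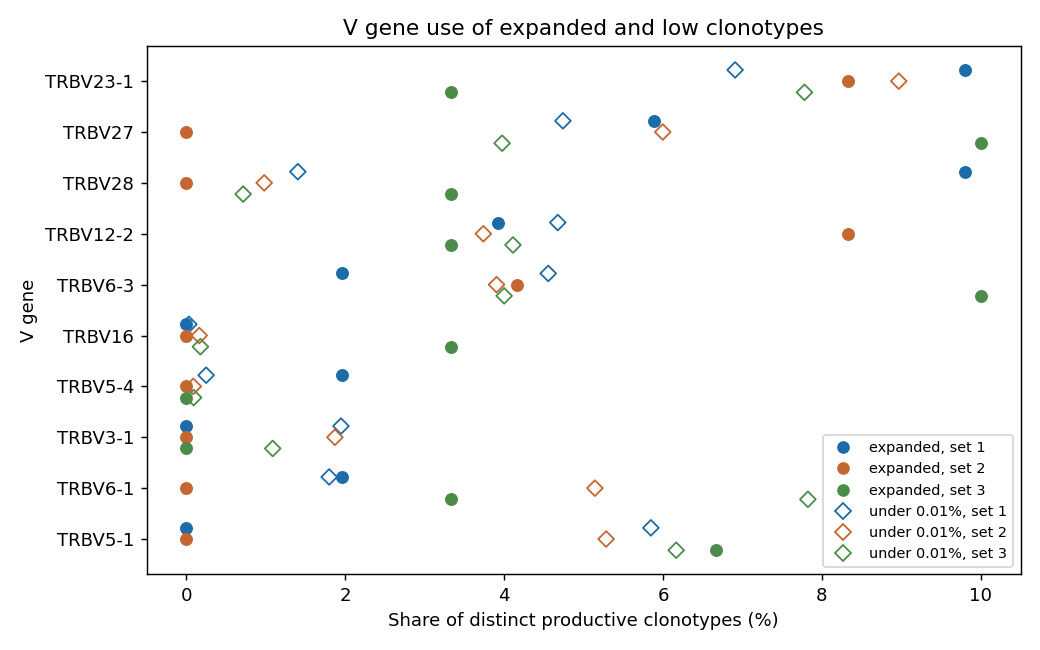
Share of distinct productive clonotypes (%) for the 5 V genes with the most members and the 3 with the smallest p in each direction, TRBV28 being among both. Filled circles are expanded and open diamonds low clonotypes, with 1 colour per repertoire set. TRBV28 lies at 9.80% of expanded clonotypes in set 1 and 0% in set 2, against 0.714% to 1.40% of low ones.

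Of the 6 TRBV28 members, 5 had a short CDR3, an observation made after their values were seen. The remaining one, with TRBJ1-5, was the largest of the 6 and had 15 residues, the median length of set 1. In set 1, 4 of 5 had a CDR3 of 11 residues, against 5.96% of the low TRBV28 clonotypes of that set, and 5 of the 51 members of set 1 had this length at all. The sixth TRBV28 member, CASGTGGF of set 3 with TRBJ1-1, had 8 residues and was the shortest productive member of any set, at 0.302% in Amazo day -4. The 4 members of 11 residues formed 2 pairs with the same CDR3 protein and different nucleotides. They are printed with the bases that differ within a pair in capitals.
TRBV28 and TRBJ2-5, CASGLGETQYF, first: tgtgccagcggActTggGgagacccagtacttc
TRBV28 and TRBJ2-5, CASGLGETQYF, second: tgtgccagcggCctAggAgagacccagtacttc
TRBV28 and TRBJ2-1, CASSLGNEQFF, first: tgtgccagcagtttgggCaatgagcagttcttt
TRBV28 and TRBJ2-1, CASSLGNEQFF, second: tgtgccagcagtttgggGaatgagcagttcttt

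The first sequence of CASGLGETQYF held 0.830%, 0.957%, 1.01% and 0.868% of counts in Amazo day -5, Amazo day +3, Rocket day -5 and Rocket day -4. The second held 0.796%, 0.842%, 0.915% and 0.703%. These sequences differ at 3 third-codon bases and stayed close to each other in all 4 libraries. The first sequence of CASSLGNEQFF held 0.399%, 0.467%, 0.442% and 0.296%, and the second 0.202%, 0.189%, 0.198% and 0.168%. They differ at 1 base, and the second was the lower in each of the 4.

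All 13 J genes had members. TRBJ2-7 and TRBJ2-1 held 14 members each (13.3% of members, 11.7% and 11.1% of low clonotypes) and TRBJ2-3 held 11 (10.5% and 9.87%). The edgeR fit called 0 of 13 J genes (0%), with 1 at an unadjusted p below 0.05, and DESeq2 called 0 with 0 unadjusted. That gene was TRBJ2-4, with 1.96%, 8.33% and 3.33% of members against 8.93%, 8.74% and 10.1% of low clonotypes in sets 1, 2 and 3. Its log2 fold change was -1.37 ± 0.58 with TMM (SE, edgeR adjusted p = 0.399) and -1.28 ± 0.63 by total counts (edgeR adjusted p = 0.678). With scaling by total counts, 0 J genes had an unadjusted p below 0.05. The share of members lay below that of low clonotypes in each set, by little in set 2. TRBJ2-6 and TRBJ1-1 had the next smallest p among lower genes, at log2 fold changes of -0.55 ± 0.78 and -0.42 ± 0.61 (SE). TRBJ2-1, TRBJ2-2 and TRBJ2-7 were the first among higher genes, at 0.17 ± 0.39, 0.13 ± 0.46 and 0.09 ± 0.40 (SE). The adjusted p of all 5 was 0.993 by edgeR with TMM.

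TRBJ2 genes, the second of the J clusters, made 67.9%, 59.5% and 56.7% of productive member rows in sets 1, 2 and 3, and 64.6%, 58.0% and 62.9% of low rows. The mean difference was -0.465 ± 5.07 percentage points (SD, n = 3 sets, p = 1, exact two-sided sign-flip permutation test). With 3 sets this exact permutation test cannot go below p = 0.25, so no single value tested over sets can pass 0.05, and over the 9 values tested every adjusted p is 1.

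A D segment was assigned to 70.2%, 86.3% and 66.7% of member rows against 75.8%, 73.6% and 74.0% of low rows. Sets differed in direction, with a mean difference of -0.0720 ± 11.1 percentage points (SD, n = 3, p = 1, exact sign-flip permutation). TRBD2 made 36.7%, 29.4% and 20% of member rows with a D hit and 33.9%, 30.2% and 30.5% of low rows (mean difference -2.82 ± 6.86 points, SD, n = 3, p = 0.75, exact sign-flip permutation). D hits are short, and 6.67% to 25% of those of members were tied between TRBD1 and TRBD2. A tied hit was counted as TRBD1, which lowers the TRBD2 shares given here. TRBD2 lies on the far side of the TRBJ1 cluster on the chromosome, so a join of TRBD2 to a TRBJ1 gene cannot arise by simple deletion. Of 26 distinct members with a TRBJ1 gene and a D hit, 1 was assigned TRBD2 (3.85%), in set 1. Among low clonotypes 12.1%, 12.8% and 12.5% were, in sets 1, 2 and 3. With untied hits only, TRBD2 was assigned to 1 of 7, 0 of 6 and 0 of 5 such members. Among low clonotypes with untied hits it was 14.3%, 15.2% and 14.9%. With TRBJ2 genes the assigned TRBD2 share of members was 40.7%, 50.0% and 33.3%, against 45.4%, 42.1% and 40.9%.

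The number of nucleotides between the V and J ends outside the D match had a lower mean in members in each set, by an amount the test could not call. It was 6.70, 7.42 and 7.73 nucleotides in sets 1, 2 and 3, against 7.20, 7.66 and 7.77 in low rows. Over libraries, members ranged from 6.59 to 7.73 with a median of 7.10, and low rows from 7.12 to 7.77 with a median of 7.39. Rows of 0.01% to 0.1% lay on the other side of the low rows, at 7.78, 7.82 and 8.06 in sets 1, 2 and 3. The ranges overlap, but the member value was lower in 7 of 8 libraries and in 3 of 3 sets. The mean difference was -0.260 ± 0.236 nucleotides (SD, n = 3, p = 0.25, the smallest the exact sign-flip permutation test allows). At a threshold of 0.05% it was -0.0393, so the size depends on where members begin. Joins with no nucleotide left between the V and J ends outside the D match were rare in both. They made 2 of 51, 1 of 24 and 1 of 30 members, against 2.47%, 2.14% and 2.11% of low clonotypes. Joins where the matches overlap are counted among them.

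CDR3 length did not shift in a common direction. Members averaged 14.5, 15.0 and 13.9 residues in sets 1, 2 and 3, against 14.5, 14.4 and 14.4 in low rows. The mean difference was -0.0146 ± 0.536 residues (SD, n = 3, p = 0.75, exact sign-flip permutation). Set 2 was longer in members and set 3 shorter. Short CDR3s of 11 residues or fewer made 10.0% to 12.8% of member rows in the 5 libraries of sets 1 and 3 and 0% in the 3 Nebula libraries, against 3.64% to 4.49% of low rows in all 8. Long ones of 18 residues or more made 0% to 5.56% of member rows and 4.11% to 5.04% of low rows.

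**Figure D3:**
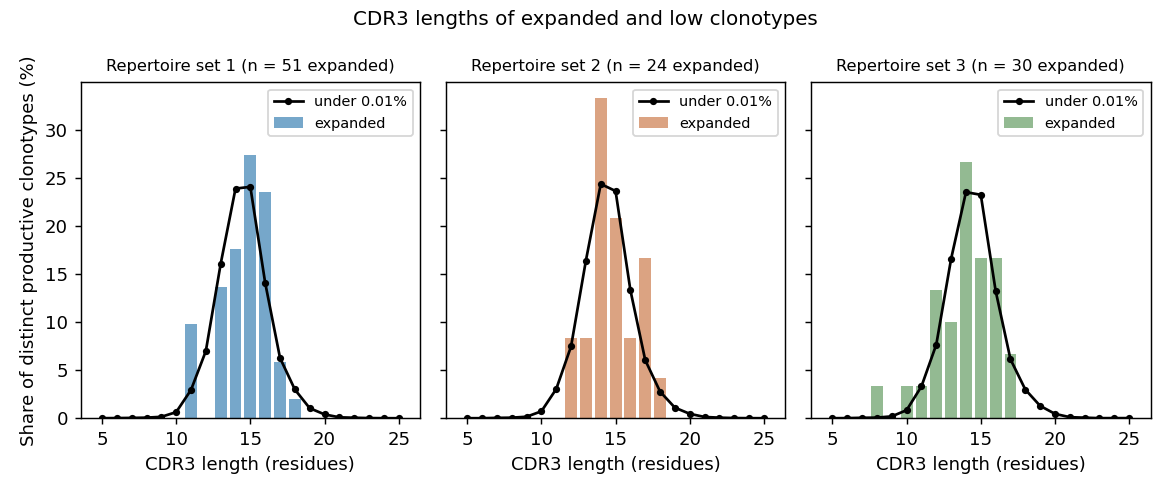
Share of distinct productive clonotypes (%) by CDR3 length in residues, with 1 panel per repertoire set. Bars are expanded clonotypes and the black line low ones. In set 1 the bar at 11 residues stands at 9.80% against 2.95% of low clonotypes, and 4 of its 5 clonotypes use TRBV28.

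The CDR3 centre, taken as the CDR3 without its first 4 and last 4 residues, had a higher mean hydropathy in members than in low rows in all 8 libraries, again without a call from the test over sets. On the Kyte-Doolittle scale, where higher means more hydrophobic, members averaged -0.780, -0.600 and -0.915 per residue in sets 1, 2 and 3. Low rows averaged -1.10, -1.08 and -1.06. The medians over distinct members were -0.725, -0.996 and -0.914 against -1.13, -1.10 and -1.06 for low clonotypes, so the difference in set 2, the largest of the 3 by mean, was the smallest by median. Over the 8 libraries members ranged from -0.915 to -0.466 with a median of -0.750, and low rows from -1.11 to -1.06 with a median of -1.09. The ranges did not overlap, and members were higher in 8 of 8 libraries and 3 of 3 sets. The mean difference was 0.315 ± 0.170 units (SD, n = 3, p = 0.25, the smallest the exact sign-flip permutation test allows). Clonotypes of 0.01% to 0.1% lay at -1.16 to -1.02, over the range of the low rows. A centre above 0 was found in 9 of 51, 7 of 24 and 6 of 29 distinct members (17.6%, 29.2% and 20.7%) against 13.4%, 14.2% and 14.8% of low clonotypes.

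The size of this difference depended on the window and the threshold. With 3 residues removed at each end, an alternative added after the data were seen, it was 0.168, and set values ran from -0.00 to 0.26. At a threshold of 0.05% it was 0.174, and with rows weighted by counts set values ran from -0.166 to 0.744. Low rows of a single count made 8.66% to 16.1% of low rows in 7 libraries and 44.5% in Nebula day -4, and with rows of at least 2 counts the difference was 0.317.

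**Figure D4:**
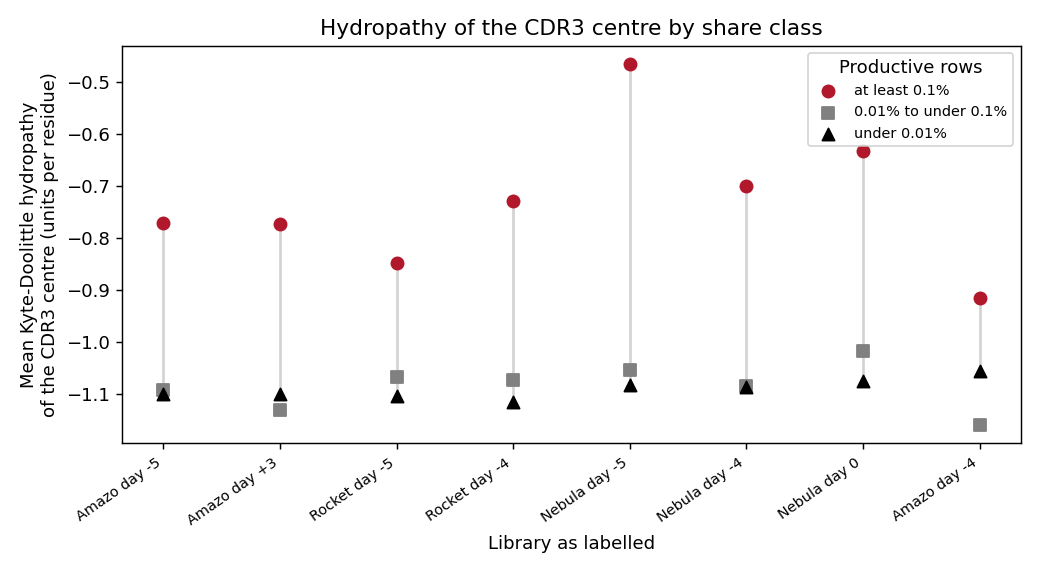
Mean Kyte-Doolittle hydropathy of the CDR3 centre (units per residue) in each library as labelled. Circles are productive clonotypes of at least 0.1%, squares those of 0.01% to under 0.1% and triangles those under 0.01%. Circles lie between -0.915 and -0.466, above the triangles of the same library in each of the 8 libraries.

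No single amino acid was called. A limma fit on log2 (percent + 0.5) of the 20 residues with the set as block called 0 of 20 (0%), with 1 at an unadjusted p below 0.05. That residue was glutamine, which made 4.82%, 6.32% and 5.35% of the centre in members against 7.33%, 7.72% and 7.09% in low rows (log2 difference -0.40 ± 0.13, SE, adjusted p = 0.441 by limma). Lysine, a charged residue, made 0.747%, 0% and 1.01% against 1.28%, 1.16% and 1.35% (-0.85 ± 0.36, adjusted p = 0.441 by limma). Phenylalanine made 1.59%, 0.947% and 0.814% against 1.63%, 1.69% and 1.69% (-0.45 ± 0.20, adjusted p = 0.441 by limma). Proline, alanine and valine had the smallest p among higher residues, at log2 differences of 0.31 ± 0.19, 0.20 ± 0.17 and 0.23 ± 0.24 (SE). None of them was higher in every set. Proline made 5.17%, 4.23% and 6.99% in members of sets 1, 2 and 3 against 4.17%, 4.26% and 4.18% in low rows, and alanine 6.38%, 5.17% and 8.11% against 5.43%, 5.54% and 5.69%. Valine was higher in set 2 alone, at 2.64%, 5.61% and 3.13% against 2.85%, 3.02% and 3.14%. Leucine, a hydrophobic residue, was not among the 3 smallest p of its direction. It made 8.85% and 10.8% of the centre in members of sets 1 and 2 against 5.98% and 5.89% in low rows, but 4.02% against 5.74% in set 3. Isoleucine, also hydrophobic, made 2.36%, 0.567% and 2.30% against 1.30%, 1.38% and 1.46%. Methionine, another such residue, made 0.584%, 0% and 0% against 0.513%, 0.551% and 0.555%.

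Net charge of the centre averaged -0.501, -0.393 and -0.0345 in members of sets 1, 2 and 3, against -0.342, -0.309 and -0.258 in low rows. It was lower in 7 of 8 libraries, the exception being Amazo day -4 (mean difference -0.00655 ± 0.202, SD, n = 3, p = 1, exact sign-flip permutation). Glycine, the commonest residue of the centre, made 19.2%, 23.5% and 22.5% in members against 20.6%, 20.6% and 21.2% in low rows (mean difference 0.927 ± 2.18 percentage points, SD, n = 3, p = 0.75, exact sign-flip permutation).

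Members showed no clusters of near-identical CDR3 proteins. Among 332 pairs of distinct members of the same set and length, 3 shared V and J genes. Of these, 2 were the identical TRBV28 pairs printed above, and 0 pairs differed at 1 residue. Regardless of V and J, 0 pairs differed at 1 residue, 2 at 2 residues and 1 at 3. In low rows, 0.566% to 2.20% of pairs with the same V, J and length differed at 1 residue, and in rows of 0.01% to 0.1% 0% to 6.33% did. With 2 or 3 such pairs of members per library of set 1 and 0 in sets 2 and 3, a rate of this order was not detectable, and a single set could enter the test (p = 1, exact permutation, the smallest a single set allows).

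The space around members was sparse too. In 5 of 8 libraries no row of the same V, J and length lay 1 residue from a member, and in the other three 2 or 3 rows did, at up to 0.00493% of counts. This was 0 to 0.150 neighbours per member, against 0.0569 to 0.207 per low row. No productive row under 0.01% lay 1 nucleotide from a member in any of the 8 libraries. The MiXCR assembler is built to merge rare sequences that lie close to an abundant one, and the part of that step in these zeros was not tested.

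Between sets, 1 CDR3 protein was a member in 2 sets. It has 16 residues with TRBV7-3 or TRBV7-7 (a tied hit) and TRBJ2-5, and the nucleotide sequences of sets 2 and 3 differ at 1 of 48 bases, in capitals.
Set 2: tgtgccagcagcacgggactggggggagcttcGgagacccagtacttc
Set 3: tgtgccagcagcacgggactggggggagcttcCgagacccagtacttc

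The set 2 sequence held 0.211%, 0.349% and 0.210% of counts in Nebula days -5, -4 and 0 and was at 0 in the other 5 libraries. The set 3 sequence held 0.299% in Amazo day -4 and 0.00402% in Amazo day -5 and was at 0 elsewhere. Neither sequence occurred in a library of the other's set. A single further pair between sets came within 2 residues, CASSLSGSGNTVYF of set 2 (TRBV7-10) and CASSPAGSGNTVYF of set 3 (TRBV6-2), both with TRBJ1-3.

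The 17 non-productive members were 9 distinct sequences, 8 out of frame and 1 in frame with a stop codon. They made 4.00% to 11.8% of member rows per library, against 5.48% to 11.2% of all rows under 0.01%, and the ranges overlap. Within a library, the share was higher among members only in Amazo day -4 (11.8% against 8.50%) and Nebula day -4 (8.70% against 5.48%). In Rocket day -5 it was 4.00% against 11.2%. Each member share rests on 1 to 4 rows, and the difference was not tested. The largest, with TRBV4-3, TRBD2 and TRBJ2-7, held 0.209%, 0.203%, 0.437% and 0.357% in Amazo day -5, Amazo day +3, Rocket day -5 and Rocket day -4. Another of 40 bases, with TRBV5-3 and TRBJ1-1, held 0.189%, 0.233%, 0.258% and 0.180% in the same libraries. In set 2 a sequence of 47 bases with TRBV11-1 and TRBJ1-6 held 0.111%, 0.145% and 0.112% in Nebula days -5, -4 and 0, and a sequence of 50 bases with TRBV23-1 and TRBJ1-5 held 0.103% in Nebula day -4. Amazo day -4 had 4, with TRBV24-1 and TRBJ2-4 (0.225%), TRBV5-1 and TRBJ2-7 (0.140%), TRBV12-2 or TRBV12-3 and TRBJ1-2 (0.125%), and TRBV24-1 and TRBJ2-1 (0.105%). A T cell can carry a failed rearrangement on its other chromosome, and some RNA is made from such a copy. Whether these sequences belong to the cells of a productive member cannot be told apart from separate origin in bulk RNA.

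Of the 9 sequences, 2 resemble a productive member of their own library. The last one named is 1 base shorter than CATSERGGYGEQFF, the second clonotype of set 3 printed above, and had 4.57% of its counts. The one with a stop codon was a member in Rocket day -4, at 0.121%. It has 126 bases and begins with the whole 39-base CDR3 of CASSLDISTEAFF, the third clonotype of set 1, given in capitals.
TRBV24-1 and TRBJ2-1, 41 bases: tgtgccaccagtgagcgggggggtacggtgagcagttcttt
TRBV9 and TRBJ1-3, 126 bases: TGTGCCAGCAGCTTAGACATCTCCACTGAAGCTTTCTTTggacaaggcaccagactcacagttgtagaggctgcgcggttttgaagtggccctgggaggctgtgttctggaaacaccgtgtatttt

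The member it begins with uses TRBJ1-1 and held 4.80% of the library, and the longer row was read as ending in TRBJ1-3 and had 2.53% of the member's counts. Such longer rows were searched around all 264 productive member rows, after this one was seen. Of 31 member rows with TRBJ1-1 or TRBJ1-2, 22 had at least 1 longer row ending in TRBJ1-3, of 122 to 139 bases. Of 233 member rows with another J gene, 0 had a longer row ending in TRBJ1-3 and 4 had any longer row. The leading longer row had 0.230% to 7.93% of its member's counts, with a median of 1.60%. They came from 10 distinct members and were present in all 8 libraries, from 1 of 4 members with these J genes in Nebula day -4 to 4 of 4 in Amazo day -5. TRBJ1-1, TRBJ1-2 and TRBJ1-3 follow each other along the chromosome in that order, and whether the longer rows are RNA that runs on into the next J genes was not tested.

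**Figure D5:**
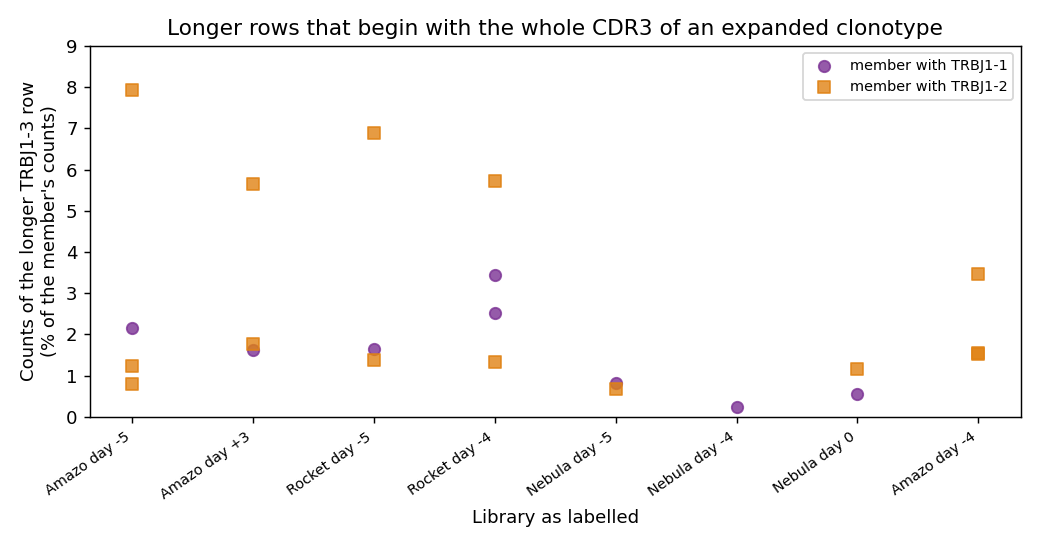
Counts of the leading longer row ending in TRBJ1-3, as % of the counts of the member whose whole CDR3 it begins with, by library as labelled. Circles are members with TRBJ1-1 and squares members with TRBJ1-2. Values run from 0.230% in Nebula day -4 to 7.93% in Amazo day -5.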

How the data were processed

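The authors made cDNA from polyadenylated RNA of blood mononuclear cells by template switching, amplified TRB with constant-region primers, sequenced it on a MiSeq, cleaned reads by Trimmomatic and used MiXCR to assemble clones. Versions are not given in the sources used here. The deposited counts are whole and not normalized, 1 value per clone, and the deposited fraction is the count divided by the total of its file. The methods describe merging of barcoded copies and a 0.5% minimum, but the files used here hold smaller clones and no barcodes. PCR copies are not independent molecules, so limits drawn from counts reflect counting error alone.

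CDR3 nucleotide sequences defined clonotypes, with the first V, D and J hit of the file, and productive meant in frame with no stop codon. Libraries were joined into repertoire sets at a Morisita-Horn index above 0.5. Per set, values were means over its libraries, and expanded minus low was tested over sets by exact sign-flip permutation (two-sided), with Benjamini-Hochberg adjustment over 9 values. For V and J genes, distinct clonotypes were counted once per set, as expanded (at least 0.1% in any library of the set) or low (below 0.01% in each), and tested for genes with at least 10 clonotypes by edgeR 4.0.16 in R 4.3.3, with the set as block. The 20 residues were tested by limma 3.58.1. Tests were run at an adjusted p threshold of 0.05. The V gene fit, the residue fit and the sign-flip test were also run on simulated data, and the J gene fit was not. The simulated sign-flip runs had more units than the sets tested here. The SE of an edgeR fold change was taken from its F statistic or, where edgeR raised p to its Poisson bound, from that p. Other work used Python 3.11.15, pandas 2.3.3, SciPy 1.17.1 and matplotlib 3.10.9. DESeq2 1.42.0 was an alternative.

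Members, lists and rules were chosen with earlier results of these data known. Named were the 5 largest productive clonotypes of a set (2 or 3 are printed, and 1 sequence is not reported here), those next to the threshold, the non-productive ones, close pairs, the genes and residues with the 3 smallest p in each direction, and the 5 V and 3 J genes with most members. Leucine, isoleucine and methionine were named outside these rules. The sign-flip p-values over sets measure the spread between 3 sets, 1 of which is a single library. Those of edgeR and limma also draw on variance shared over genes or residues. Where edgeR raised p to its Poisson bound, that p reflects counting error. The p-values with 8 libraries as units measure the spread between libraries, which are not independent. Chromosome positions were not used here.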

Additional observations from a re-analysis of the deposited data

Results flagged for a closer look

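For independent libraries, chance alone would flag about 1 value in 20. The libraries of a repertoire set share most members and are not independent, so that rate need not hold here. Of 13 series of values over the libraries, 2 had a library far from the others. The net charge of the CDR3 centre was 0.223 higher in members than in low rows in Amazo day -4. The other 7 libraries ran from -0.178 to -0.0265. Amazo day -4 is alone in its repertoire set, so this is also a distance between sets. In Nebula day -4, 44.5% of low rows had a single count, against 8.66% to 16.1% in the others, and its total of 42695 counts was the lowest of the 8.

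Between repertoire sets 1 and 2, 2 differences had opposite signs in every library of each set, and these contrasts between sets were not tested. The share of rows with a D hit in members minus that in low rows was -5.59 percentage points in set 1 and 12.7 in set 2. The glycine share of the CDR3 centre differed by -1.40 points in set 1 and by 2.91 in set 2.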

How the results depend on the processing

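Hydropathy of the centre and nucleotides outside the D match kept the sign of their mean under each alternative run, though not in each set. With each of the 8 libraries as a unit, which counts the clones that libraries of a set share more than once, they passed p below 0.05 (0.360, p = 0.00781, and -0.347, p = 0.0234, exact sign-flip permutation), and calls rose from 0 to 26 V genes, 1 J gene and 5 residues. With total counts as well, an alternative added after the data were seen, 6 V genes and 1 J gene were called. TRBV28 was higher in both (log2 1.54 and 2.72). No other setting called a gene or residue.

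Differences near 0 changed sign. With 8 libraries they were 0.114 (length), 1.45 (TRBJ2 share) and 1.05 (D hit). At 0.5% they were 0.0622 (length), 3.21 (TRBJ2), 10.9 (D hit), 1.81 (TRBD2) and -1.70 (glycine). At 0.05% they were 1.47 (TRBJ2) and 2.26 (D hit). With low rows of at least 2 counts length was 0.00589. With rows merged by V, J and protein, length was 0.0308 and D hit 0.301. Weighted by counts, D hit was 6.92, charge 0.00150 and glycine -1.70. With 1 V and 1 J hit, D hit was 0.938. Against rows of 0.01% to 0.1%, charge was 0.150. The cause was not tested.

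Without 1 set at a time, differences ran from -0.287 to 0.248 (length), -2.35 to 2.41 (TRBJ2), -6.46 to 3.56 (D hit), -5.61 to 1.01 (TRBD2), -0.373 to -0.137 (nucleotides), 0.232 to 0.402 (hydropathy), -0.121 to 0.0697 (charge) and -0.0664 to 2.09 (glycine). Log2 values that turned were TRBV28 (-0.0745 to 1.93), TRBV16 (-8.10 to 2.84), TRBV5-4 (-7.37 to 1.97), TRBJ2-2 (-0.30 to 0.37), TRBJ2-7 (-0.19 to 0.50) and valine (-0.0499 to 0.396). At 0.5%, TRBV16 was at -8.07, TRBV5-4 at -8.63 and TRBJ2-7 at -0.24. At 0.05%, TRBJ2-2 was at -0.0485 and TRBJ1-1 at 0.0486. With 8 libraries TRBJ2-7 was at -0.12. Values near -8 come from genes left with 0 members and are no measure of size.

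The replicate numbers of the labels name no pairs. No replicate block was also tried, and without it 0 genes and 0 residues were called. Excluding low rows 1 nucleotide from a member removed none. The rate of 1-residue neighbours could not be recomputed without set 1, since no other set had a pair. Depth limits the low class most, since 0.01% is 4.27 counts in Nebula day -4 and 55.7 in Rocket day -5. A share of 3 counts is 0.000539% to 0.00703% of a library.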
